A study of Mus musculus with 12 samples.

Results

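The Slc25 family of mitochondrial solute carriers was examined in the nucleus accumbens of adult mice whose mothers had received poly(I:C) or saline in late pregnancy. Members were the rows of the expression table that the array annotation assigns to exactly 1 gene symbol beginning with Slc25a, with the brightest row kept for each symbol. This gave 46 genes from 51 such rows, out of 21218 rows with 1 symbol and 35556 rows in all. Both groups were C57BL/6N offspring aged 12 weeks. The dams of the 6 exposed animals had been given 5 mg/kg of poly(I:C), synthetic double-stranded RNA used in place of a viral infection, by vein on gestation day 17, and those of the 6 control animals had been given saline. All offspring went through behavioural testing before dissection of core and shell together, so the controls share that experience. Each array came from 1 sample labelled as a biological replicate. The sources used here do not give sex or litter, so the p-values measure the spread between these samples and take them as independent even if some are litter mates.

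Carriers of this family sit in the inner mitochondrial membrane, with a few exceptions in the outer membrane or in peroxisomes. They move nucleotides, phosphate, amino acids, carboxylic acids, cofactors and metal ions between the cytosol and the matrix, and so connect oxidative phosphorylation with the metabolism of the rest of the cell. In neurons the ADP/ATP and phosphate carriers supply the ATP synthase, and the aspartate-glutamate carrier Slc25a12 is part of the malate-aspartate shuttle that carries reducing equivalents into mitochondria.

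Values are array signals on the log2 scale after RMA normalization, and differences are given as the exposed minus the control mean on that scale. Array medians lay between 4.78 and 4.85 and arrays correlated pairwise between 0.991 and 0.997. Of 9 markers of accumbens medium spiny neurons 7 were measured, all above the median row level of 5.47, and their mean ran from 9.25 to 9.81 in controls and from 9.47 to 9.86 in exposed offspring. Markers of tissue next to the accumbens were uneven between arrays. The mean of 9 choroid plexus markers ran from 4.68 to 6.81 in controls, with control 4 at 6.15 and control 6 at 6.81, and from 4.51 to 4.76 in exposed offspring. The mean of 8 measured cortical neuron markers ran from 5.67 to 6.80 in controls and from 6.20 to 7.01 in exposed offspring, with all 8 higher in value. The mean of 8 measured oligodendrocyte markers ran from 7.85 to 8.44 in controls and from 7.69 to 7.89 in exposed offspring, with all 8 lower in value. In dissected tissue, fewer cells of a type and less RNA per cell cannot be told apart.

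None of the 46 carrier genes passed the test between the groups after adjustment over all rows. The smallest adjusted p was 0.0973 (limma, Benjamini-Hochberg), and 13 of 21218 rows passed, 0.0613%. An unadjusted limma p under 0.05 was reached by 9 carriers (19.6%), against 14.4% of all rows. Of these, 7 were higher in exposed offspring, namely Slc25a3, Slc25a4, Slc25a12, Slc25a22, Slc25a23, Slc25a42 and Slc25a44 (15.2% of the members, background 7.83%), and 2 were lower, namely Slc25a13 and Slc25a21 (4.35% of the members, background 6.57%). The 7 higher ones all lay above the median level, where the background was 12.4% of rows called higher and 7.37% called lower. Among the 30 members above that level they made up 23.3%. Both lower ones lay under it, where they made up 12.5% of the 16 members, against 5.78% of all rows there. In value, 30 members were higher and 16 lower, 65.2% higher against 50.9% of all rows, and the median difference was 0.04 against 0.00 over all rows (range of members -0.16 to 0.29). Among the 30 members above the median level, 70% were higher with a median difference of 0.07, against 59.5% and 0.02 for all rows above that level. No set test was made of these counts.

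**Figure D1:**
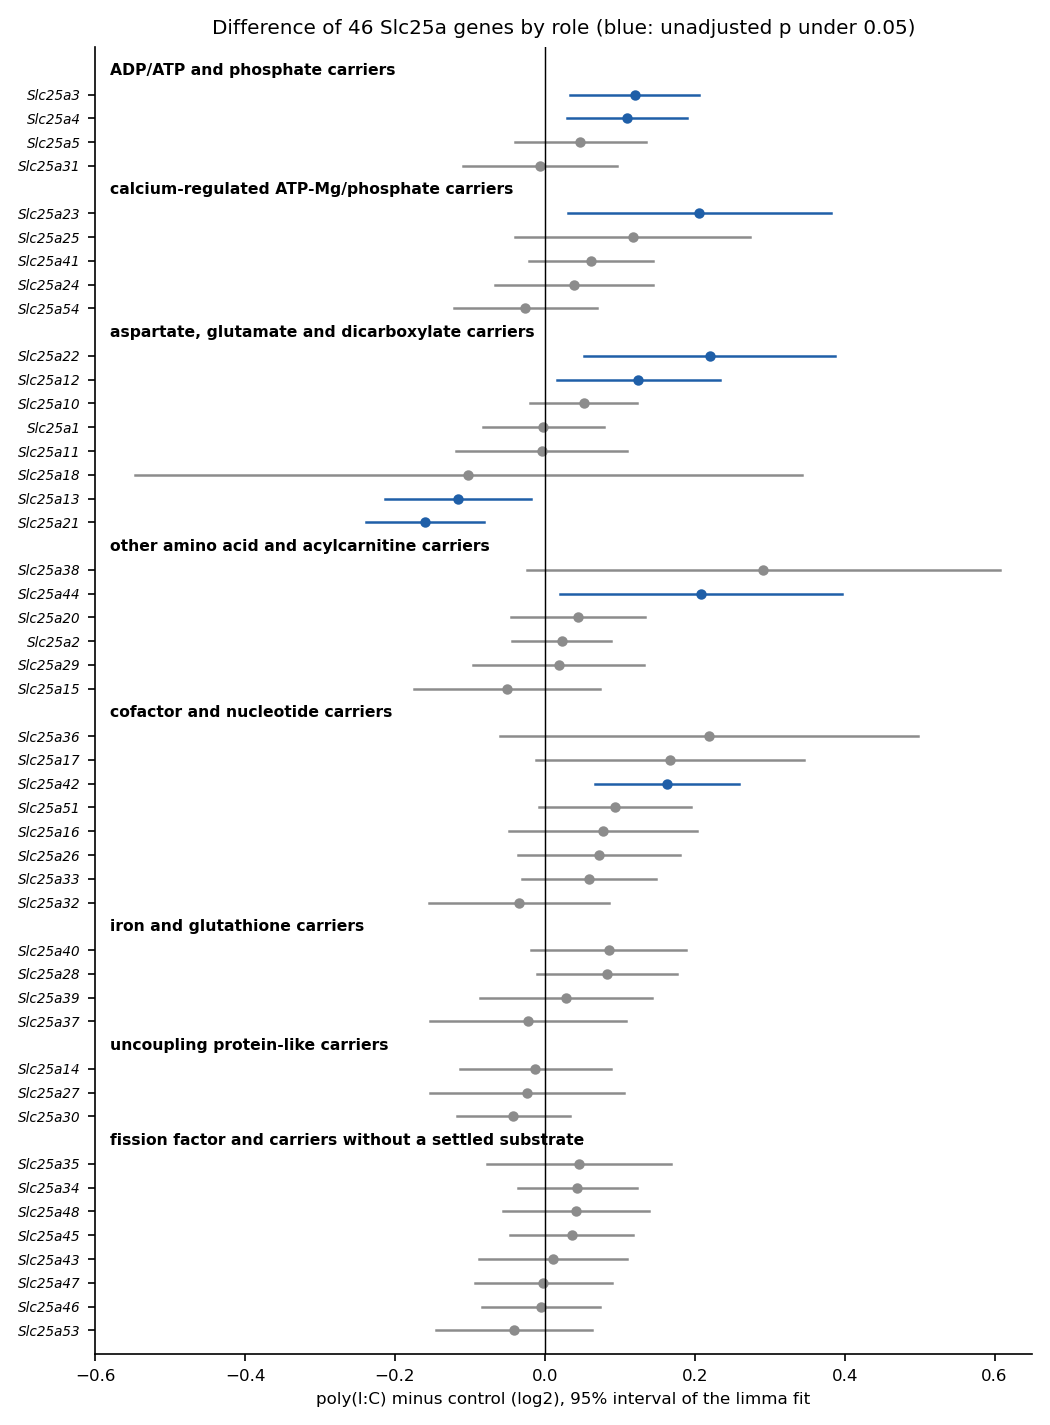
Difference between poly(I:C) and control arrays (log2, horizontal axis) for the 46 Slc25a genes, grouped by the role of the carrier, with points for the estimate, lines for the 95% interval of the limma fit and blue for an unadjusted p under 0.05. The 7 blue genes to the right of 0 have differences between 0.11 and 0.22, and the 2 to the left have -0.12 and -0.16.

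Control 4 supplied much of the low end of the control range. Among the 7 members higher at an unadjusted p under 0.05, it was the lowest control array for 6, and among the 30 members above the median level for 14 (46.7%, against 24.1% of all rows above that level). The 7 were picked by that p in these same arrays, and the share among all rows called higher was not computed. Without control 4, 4 of the 46 members were higher at that p, namely Slc25a3, Slc25a4, Slc25a22 and Slc25a42, where 6.08% of all rows were. The 2 lower ones stayed, where 5.32% of all rows were lower in that fit. Without control 4 and control 6, the arrays with the highest choroid plexus means, 1 was higher (Slc25a42) and 1 lower (Slc25a21), or 2.17% of the members each, against 4.34% and 4% of all rows. With the cortical and choroid plexus means as covariates, 3 of the 46 members were higher (Slc25a12, Slc25a17 and Slc25a42), against 4.08% of all rows. In that fit 1 was lower (Slc25a21), against 4.48% of all rows. Without control 5, 11 of the 46 members were higher at that p, against 8.27% of all rows, and 1 was lower, against 6.46%. The part of neighbouring tissue in these differences was not tested beyond these fits.

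**Figure D2:**
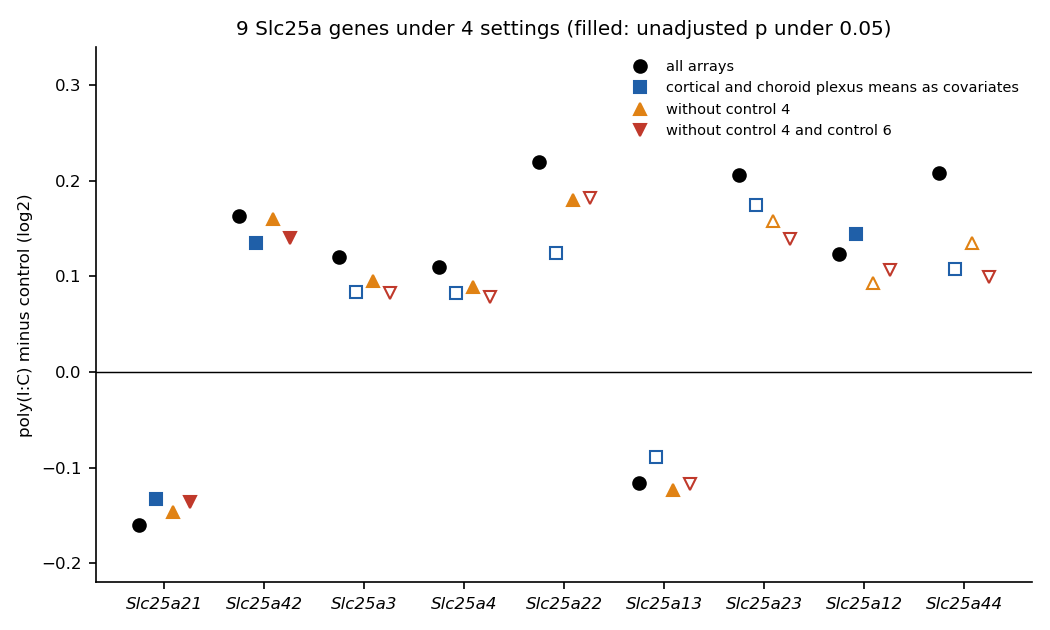
Difference between the groups (log2, vertical axis) for the 9 genes with an unadjusted p under 0.05, with all arrays, with 2 tissue covariates, without control 4 and without both control 4 and control 6. Filled symbols have an unadjusted p under 0.05. The symbols are filled in all 4 settings for Slc25a21 and Slc25a42, while every gene keeps its sign.

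Promoter sequences of the genes with the smallest unadjusted p are printed here so that they can be compared with each other. RefSeq's table for GRCm38.p6 held promoter windows for 36 of the 46 genes (46 windows). The sequences below are those of the 6 genes with the smallest p among these, and each runs 5′ to 3′ on the gene's strand over that part of the 250 bases before the first listed start that lies upstream of the outermost annotated start. Capitals mark matches on either strand to GCGCA, any base and GCGC (recognised by NRF1, a regulator of genes for mitochondrial proteins), CCGGAAG (ETS factors), AAGGTCA (oestrogen-related receptors) and GGGCGG (the GC box of Sp1), none of which contains another.
Slc25a3 (chr10:91124047-91124217, - strand): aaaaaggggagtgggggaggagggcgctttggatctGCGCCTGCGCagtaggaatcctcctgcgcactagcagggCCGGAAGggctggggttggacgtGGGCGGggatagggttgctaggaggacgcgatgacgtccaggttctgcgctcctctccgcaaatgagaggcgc
Slc25a4 (chr8:46211063-46211312, - strand): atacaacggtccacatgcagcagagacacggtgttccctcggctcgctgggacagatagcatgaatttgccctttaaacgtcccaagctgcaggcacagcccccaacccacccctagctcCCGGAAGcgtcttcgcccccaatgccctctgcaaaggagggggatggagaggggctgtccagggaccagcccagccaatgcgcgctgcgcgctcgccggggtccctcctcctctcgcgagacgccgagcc
Slc25a42 (chr8:70212282-70212531, - strand): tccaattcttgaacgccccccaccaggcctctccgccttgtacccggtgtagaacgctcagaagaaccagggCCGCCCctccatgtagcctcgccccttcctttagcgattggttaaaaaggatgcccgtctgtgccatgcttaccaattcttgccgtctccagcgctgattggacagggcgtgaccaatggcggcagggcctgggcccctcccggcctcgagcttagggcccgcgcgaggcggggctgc
Slc25a22 (chr7:141437875-141438124, - strand): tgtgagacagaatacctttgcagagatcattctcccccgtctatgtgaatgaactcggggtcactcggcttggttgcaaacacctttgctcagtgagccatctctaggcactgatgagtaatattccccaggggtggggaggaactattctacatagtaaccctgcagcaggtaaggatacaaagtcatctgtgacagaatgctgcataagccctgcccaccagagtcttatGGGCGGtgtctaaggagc
Slc25a21 (chr12:57197473-57197722, - strand): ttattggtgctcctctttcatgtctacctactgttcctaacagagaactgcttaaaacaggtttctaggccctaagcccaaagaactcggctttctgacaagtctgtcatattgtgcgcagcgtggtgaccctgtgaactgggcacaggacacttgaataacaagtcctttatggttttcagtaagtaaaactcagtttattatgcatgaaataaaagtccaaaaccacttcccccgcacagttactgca
Slc25a13 (chr6:6217305-6217423, - strand): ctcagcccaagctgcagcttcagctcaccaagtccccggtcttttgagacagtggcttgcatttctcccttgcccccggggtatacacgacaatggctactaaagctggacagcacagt

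The window of Slc25a3 held the NRF1, ETS and Sp1 letters once each. That of Slc25a4 held the ETS letters, and those of Slc25a42 and Slc25a22 held the Sp1 letters. The stretches printed for the 2 genes lower in value, Slc25a21 and Slc25a13, held none of the 4 motifs. Over the 250 bases before the start, the NRF1 letters were present in 2 of the 46 member windows (4.35%, genes Slc25a3 and Slc25a31) and in 3.74% of all 32851 windows. CCGGAAG was present in 6 member windows and in 6.91% of all, AAGGTCA in 1 (2.17%) and 4.08%, and GGGCGG in 32 (69.6%) and 32.7%. The median G and C content was 57.4% in member windows and 52.4% in all. These are matches of letters and were not tied to expression.

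The ADP/ATP and phosphate carriers are the route by which mitochondria import ADP and phosphate and export ATP. Slc25a3, the phosphate carrier, ran from 9.99 through a median of 10.14 to 10.17 in controls and from 10.16 through 10.25 to 10.31 in exposed offspring. Of the 6 exposed arrays 5 lay above every control, and control 4 was the lowest array. The means were 10.12 ± 0.07 and 10.23 ± 0.06 (SD, n = 6 each), a difference of 0.12 (SE 0.04, 95% interval 0.03 to 0.21, limma adjusted p = 0.210). Slc25a4, the ADP/ATP carrier of heart, muscle and brain, ran from 9.21 through 9.32 to 9.38 in controls and from 9.38 through 9.42 to 9.51 in exposed offspring. Again 5 of 6 exposed arrays were above all controls. Its difference was 0.11 (95% interval 0.03 to 0.19, limma adjusted p = 0.216). Slc25a31, the ADP/ATP carrier known from testis, had the lowest signal of the family, with 3.03 ± 0.10 in controls and 3.02 ± 0.06 in exposed offspring.

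Slc25a5, the ADP/ATP carrier of most dividing and non-muscle tissues, had 3 rows on the array. The brightest stood at 10.09 ± 0.09 in controls and 10.14 ± 0.02 in exposed offspring, or 0.05 higher (95% interval -0.04 to 0.14, limma adjusted p = 0.631). The next row was at 10.02 ± 0.10 and 10.11 ± 0.02, or 0.10 higher (limma adjusted p = 0.324), with an unadjusted p under 0.05. The dimmest was at 9.31 ± 0.18 and 9.45 ± 0.03, or 0.14 higher (limma adjusted p = 0.357). All 3 pointed the same way, and in each the 6 exposed arrays lay within the control range, below control 3 and above control 4. For the brightest row the difference was 0.02 without control 4 and 0.01 without controls 1 and 4. RefSeq lists pseudogenes of this gene, so which transcripts each row reads is uncertain.

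**Figure D3:**
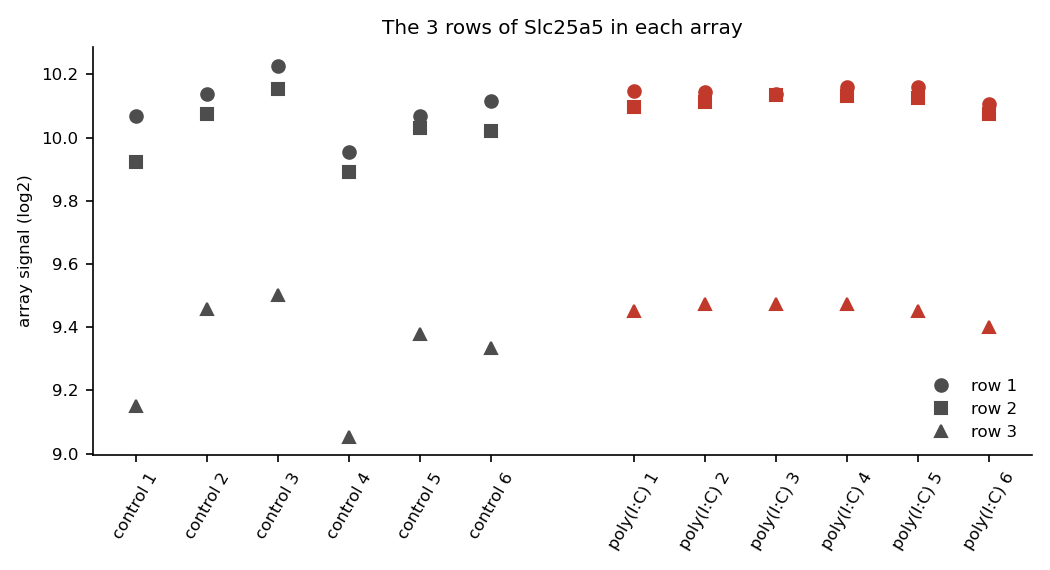
Signal of the 3 Slc25a5 rows (log2, vertical axis) in each of the 12 arrays, in grey for controls and red for exposed offspring, with rows numbered from the brightest. Controls 1 and 4 are lowest in every row, and the exposed arrays lie close together (SD 0.02 in the 2 brighter rows, 0.03 in the dimmest).

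Calcium-regulated carriers of this family exchange ATP-Mg for phosphate and adjust the adenine nucleotide pool of the matrix. Slc25a23 ran from 9.23 through 9.46 to 9.77 in controls and from 9.58 through 9.68 to 9.80 in exposed offspring. The exposed arrays were closely grouped (SD 0.07 against 0.21), and only 1 exceeded the highest control. The difference was 0.21 (95% interval 0.03 to 0.38, limma adjusted p = 0.279), and without control 4 it was 0.16, with an unadjusted p above 0.05. Slc25a25 was at 5.89 ± 0.19 and 6.00 ± 0.06. The dim members Slc25a24 and Slc25a54 were at 3.90 ± 0.10 and 3.94 ± 0.06, and at 3.11 ± 0.10 and 3.09 ± 0.03. Slc25a41, also under the median level, had a difference of 0.06. Slc25a41 and Slc25a23 neighbour each other on the chromosome.

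Among the 8 carriers of aspartate, glutamate and other carboxylic acids, 4 reached an unadjusted p under 0.05, 2 in each direction, where 14.4% of all rows did (7.83% higher, 6.57% lower). Slc25a12, the brain aspartate-glutamate carrier, ran from 9.18 through 9.39 to 9.42 in controls and from 9.34 through 9.48 to 9.52 in exposed offspring, with 4 exposed arrays above all controls. Controls 1 and 4 were its lowest arrays, at 9.21 and 9.18. The difference was 0.12 (95% interval 0.02 to 0.23, limma adjusted p = 0.289), and without controls 1 and 4 it was 0.06, with an unadjusted p above 0.05. Slc25a13, the isoform known from liver, was lower in value at 5.08 ± 0.09 against 4.97 ± 0.07 (difference -0.12, 95% interval -0.21 to -0.02, adjusted p = 0.275). Its controls ran from 4.94 to 5.18 and its exposed arrays from 4.87 to 5.03, so the groups overlapped.

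Slc25a22, a glutamate carrier whose loss causes early epileptic encephalopathy in humans, ran from 7.43 through 7.63 to 7.83 in controls and from 7.62 through 7.88 to 8.10 in exposed offspring. In 4 of 6 exposed arrays it was above all controls, while poly(I:C) 5 at 7.71 and poly(I:C) 6 at 7.62 lay among them. The difference was 0.22 (95% interval 0.05 to 0.39, limma adjusted p = 0.231), and adding both tissue means as covariates left 0.125, with an unadjusted p above 0.05. Slc25a18, the second glutamate carrier, known from astrocytes, had the largest SD of the 46 genes among exposed arrays, though not among controls. It stood at 7.35 ± 0.29 in controls and 7.25 ± 0.52 in exposed offspring. That direction rested on poly(I:C) 6 at 6.26, without which the difference turned from -0.10 to 0.10. Slc25a11, the oxoglutarate carrier that completes the malate-aspartate shuttle, was at 9.46 ± 0.10 and 9.45 ± 0.09 (95% interval of the difference -0.12 to 0.11), and the citrate carrier Slc25a1 at 7.98 ± 0.03 and 7.98 ± 0.08.

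Slc25a21, a carrier of oxodicarboxylates in lysine and tryptophan breakdown, was the one member whose groups did not overlap, as for 1.13% of all rows. It ran from 3.60 through 3.71 to 3.76 in controls and from 3.51 through 3.52 to 3.59 in exposed offspring. Every exposed array was below every control, with the nearest pair, poly(I:C) 3 and control 1, at 3.59 and 3.60. The difference was -0.16 (SE 0.04, 95% interval -0.24 to -0.08, limma adjusted p = 0.0973). Both group means lay far under the median level, at the 16.7th percentile of rows, where arrays resolve differences poorly. Its unadjusted p was under 0.05 in all 23 alternative fits that tested its row. The gene was picked by that p in the same arrays, so these fits are not separate support.

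Cofactor and nucleotide carriers were higher in value for 7 of 8 members. Slc25a42, which brings coenzyme A into the matrix, ran from 6.89 through 6.95 to 7.13 in controls and from 7.04 through 7.14 to 7.19 in exposed offspring. All 6 exposed arrays were above the control median and 3 were above the highest control, control 3. The means were 6.97 ± 0.09 and 7.13 ± 0.06, a difference of 0.16 (SE 0.04, 95% interval 0.07 to 0.26, limma adjusted p = 0.148). Its unadjusted p was under 0.05 in all 24 alternative fits, though the gene was picked by that p in the same arrays. Without control 3, its highest control, the limma adjusted p was 0.0492. In that fit 84 of 21218 rows passed, against 13 with all arrays. With both tissue means as covariates the difference was 0.135.

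**Figure D4:**
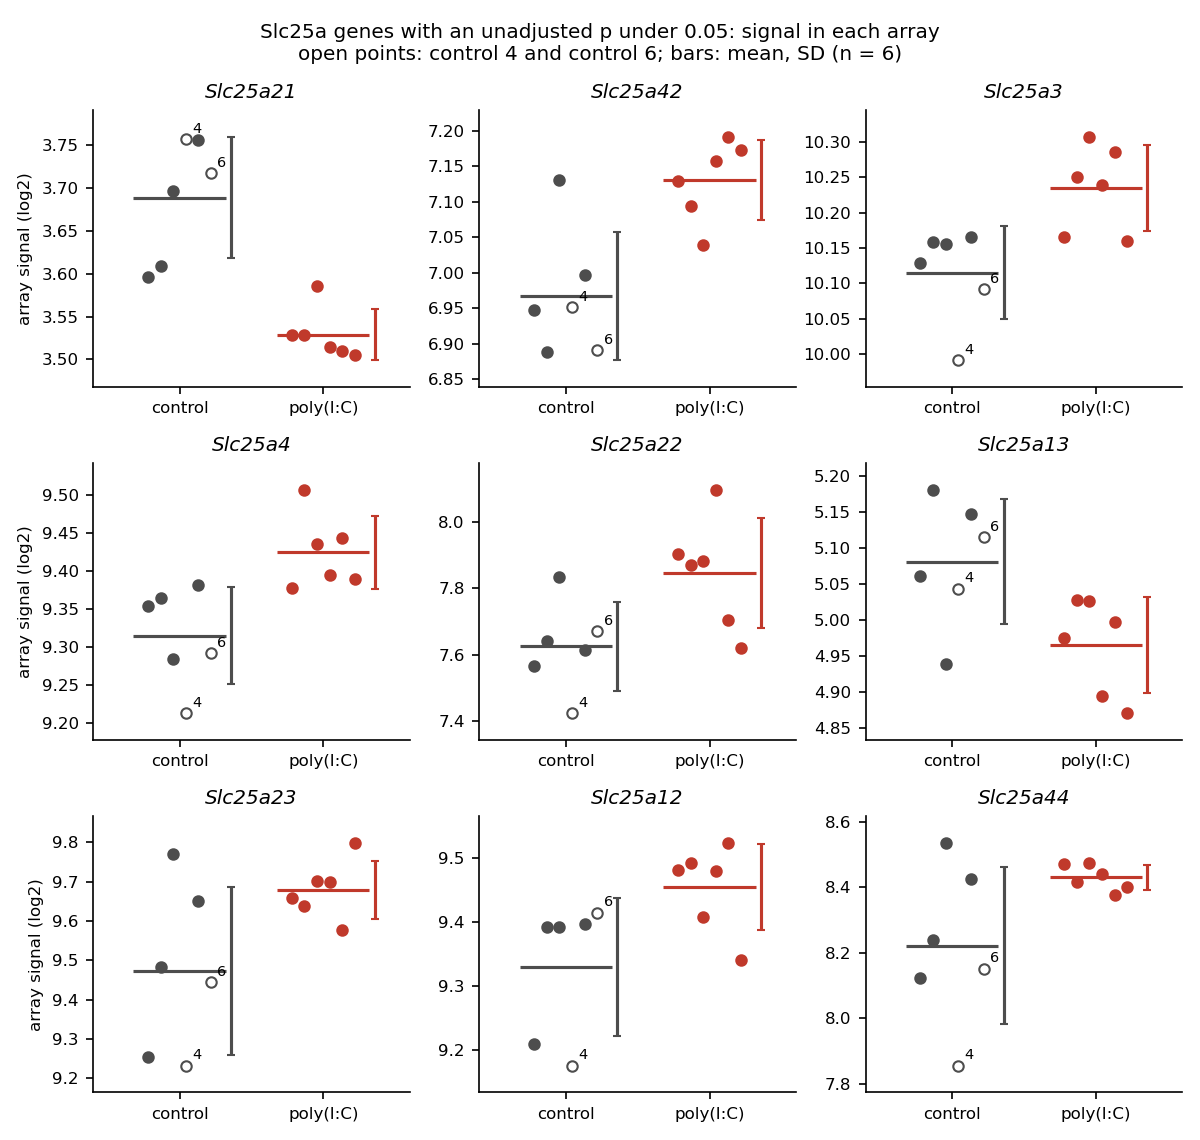
Signal in each array (log2, vertical axes that do not start at 0) for the 9 Slc25a genes with an unadjusted p under 0.05, in grey for controls and red for exposed offspring, with horizontal bars for means, vertical bars for SD (n = 6) and open points for controls 4 and 6. Slc25a21 is the gene without overlap, and control 4 is the lowest array for 6 of the 7 genes with a higher exposed mean.

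The other cofactor carriers did not reach that p. Slc25a51, the NAD carrier, stood at 7.44 ± 0.09 and 7.53 ± 0.08 (95% interval of the difference -0.01 to 0.20). The peroxisomal carrier Slc25a17 stood at 7.21 ± 0.19 and 7.37 ± 0.13, while the pyrimidine nucleotide carrier Slc25a36 ran from 7.53 through 8.10 to 8.40 in controls and from 8.09 through 8.22 to 8.32 in exposed offspring. For this gene, controls 1 and 4 were at 7.59 and 7.53 and the other 4 controls at 8.05 or more, and the difference was -0.000554 without that pair. A second row of Slc25a36 gave a difference of 0.07 against 0.22 for the row used. The remaining members of the group were Slc25a16, Slc25a26, Slc25a32 and Slc25a33, with differences between -0.03 and 0.08.

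Of 6 carriers of other amino acids and of acylcarnitine, 5 were higher in value. Slc25a44, a carrier of branched-chain amino acids, ran from 7.85 through 8.20 to 8.54 in controls and from 8.38 through 8.43 to 8.47 in exposed offspring. The exposed arrays all fell inside the control range, and their SD was 0.04 against 0.24. The difference was 0.21 (95% interval 0.02 to 0.40, limma adjusted p = 0.305), and without controls 1 and 4 it was 0.09. Slc25a38, a glycine carrier needed for haem synthesis, had the largest difference in value, 0.29, with a 95% interval from -0.02 to 0.61. Without control 4 it was 0.17, less than the 0.18 of Slc25a22, and without controls 1 and 4 the difference of Slc25a38 was 0.05. Its controls ran from 6.26 (control 4) through 7.09 to 7.20 and its exposed arrays from 6.86 through 7.23 to 7.32. The carnitine-acylcarnitine carrier Slc25a20 was at 5.75 ± 0.03 and 5.79 ± 0.09, and the basic amino acid carrier Slc25a29 at 5.07 ± 0.11 and 5.09 ± 0.07. Of the ornithine carriers, Slc25a15 had a difference of -0.05 and Slc25a2, among the dimmest members, was at 3.26 ± 0.03 and 3.28 ± 0.04.

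The remaining groups gave no member with an unadjusted p under 0.05. The mitochondrial iron importers Slc25a28 and Slc25a37 stood at 7.10 ± 0.09 and 7.18 ± 0.05, and at 6.40 ± 0.14 and 6.38 ± 0.07. Of the glutathione carriers, Slc25a39 stood at 7.42 ± 0.08 and 7.45 ± 0.11, and Slc25a40 was 0.09 higher in value on its brighter row and 0.01 on its second. The 3 uncoupling protein-like carriers were all slightly lower in value, with Slc25a14 at 6.83 ± 0.10 and 6.82 ± 0.06, the neuronal Slc25a27 at 7.31 ± 0.07 and 7.28 ± 0.14, and Slc25a30 at 6.14 ± 0.06 and 6.09 ± 0.03. Slc25a46, an outer membrane protein that acts in mitochondrial fission and is mutated in a hereditary neuropathy with optic atrophy, stood at 7.96 ± 0.05 and 7.96 ± 0.06 (95% interval of the difference -0.08 to 0.07). A dim second row of Slc25a46, at 3.85 ± 0.09 and 3.96 ± 0.10, was 0.11 higher in value, with an unadjusted p above 0.05. The 7 carriers without a settled substrate had differences between -0.04 and 0.05.

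The order of array signals ran from Slc25a3 (10.18 over 12 arrays) and Slc25a5 (10.12) through Slc25a23 (9.58), Slc25a11 (9.46), Slc25a12 (9.39) and Slc25a4 (9.37) to Slc25a24 (3.92), Slc25a21 (3.61), Slc25a2 (3.27), Slc25a54 (3.10) and Slc25a31 (3.02). These are signals of different probe sets, whose affinities differ, so the order is not one of transcript numbers. Of 45 neighbouring pairs in the order, 29 differed by less than the larger SD of the pair, among them Slc25a3 and Slc25a5, Slc25a11 and Slc25a12, and Slc25a54 and Slc25a31. There were gaps larger than that SD between Slc25a5 and Slc25a23 and between Slc25a4 and Slc25a44 (8.33). The 6 brightest carriers lay between the 96.8th and the 99.0th percentile of all rows, and 30 of 46 lay above the median level.

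**Figure D5:**
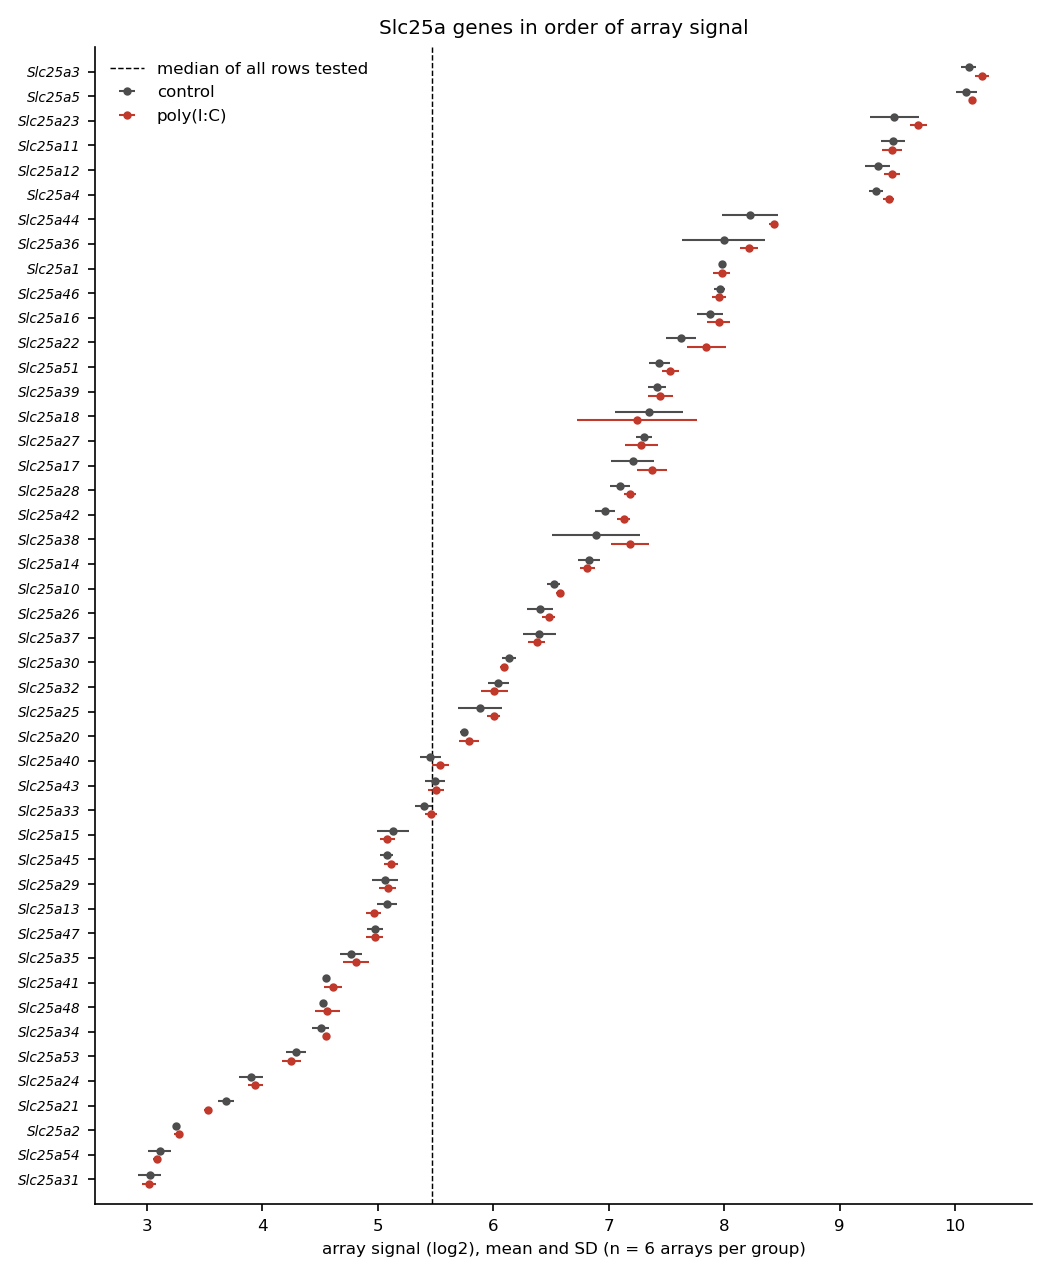
The 46 Slc25a genes in order of mean array signal (log2, horizontal axis), with mean and SD of 6 control arrays in grey and 6 poly(I:C) arrays in red and the median of all rows as a dashed line. The 6 genes at the top lie above 9, and the 5 at the bottom lie under 4.

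Exposed arrays were less spread than controls for 33 of the 46 members (71.7%, against 59.5% of all rows). The median SD of a member was 0.0891 in controls and 0.0687 in exposed offspring, against 0.0879 and 0.0774 over all rows. Controls 1 and 4 were the lowest pair of controls for 11 of the 30 members above the median level (36.7%, against 28.4% of all rows above it), including Slc25a12, Slc25a22, Slc25a23 and Slc25a44. In controls 1 and 4 the cortical marker means were 6.80 and 5.94 and the choroid plexus marker means 4.68 and 6.15. Whether neighbouring tissue had a part in their low signals was not tested.

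Other genes of mitochondrial transport were taken from a list of 41, of which 35 were measured. After adjustment 0 passed (limma, smallest adjusted p 0.0862), and at an unadjusted p under 0.05 there were 5 higher (14.3%) and 1 lower (2.86%), against 7.83% and 6.57% of all rows. Of these genes 29 lay above the median level, where 12.4% of all rows were higher and 7.37% lower at that p. Of the 3 ABC transporters at the top, Abcb6, a porphyrin transporter, went from 5.94 ± 0.06 to 6.11 ± 0.05 with no overlap of the groups (limma adjusted p = 0.0862). Abcb8 had a difference of 0.14 and Abcb10, which acts in haem synthesis, 0.18. Timm13, a chaperone that carries inner membrane proteins across the intermembrane space, had 0.15, the calcium uniporter Mcu 0.12 and the sideroflexin Sfxn4 -0.10. The porin Vdac1 was at 10.29 ± 0.07 and 10.31 ± 0.06, the pyruvate carrier subunit Mpc1 at 9.33 ± 0.06 and 9.30 ± 0.08, and the carrier homologue Mtch2 at 7.93 ± 0.06 and 7.93 ± 0.07. Ucp2 and Mpc2 were not analysed here.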

How the data were processed

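The authors deposited 1 table of log2 values with 1 column per array, which the submitters' processing notes link to RMA and Partek 6.6. RMA equalises the distributions of arrays, so a shift common to most transcripts is hidden, and it compresses low values. Per the labels' protocols, 250 ng of total RNA went onto Affymetrix Mouse Gene 1.1 ST strips. The sources used here do not give the settings or the genome build.

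Groups came from sample titles. Rows with exactly 1 symbol in the platform annotation (21218, with 1881 rows of several symbols and 12457 unnamed left out) were fitted in R 4.3.3 with limma 3.58.1 (lmFit and eBayes, exposure as the only term, two-sided, Benjamini-Hochberg over these rows, threshold 0.05, no intensity filter). The fit was tested on simulated data. The pass mark of that test covered only differences larger than any found in these members, so it does not vouch for recovery at their size. Of these rows 21185 matched RefSeq by gene identifier and 0 changed symbol. Precision is limited by the 12 arrays.

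Full values are given for members with an unadjusted p under 0.05, the 5 brightest, the 5 dimmest and 13 genes listed by name, and for transport genes with such a p or listed by name. Other members were named after their values were seen. Members, lists and motifs were chosen with earlier results of these data known. The 24 alternatives were a low-value filter, quantile normalization, centring, trended robust moderation, array weights, a replicate block, tissue covariates, second rows, all rows, and arrays left out.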

Additional observations from a re-analysis of the deposited data

Results flagged for a closer look

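Each group of 6 arrays was screened for a single array far from the others, for all 46 members. Of the 92 groups of values, 3 held an array whose gap to its neighbour was large against the range (Dixon's 95% critical value 0.625), and chance alone marks about 1 group in 20. Slc25a21 was at 3.59 in poly(I:C) 3, against 3.53 in the next exposed array. Slc25a38 was at 6.86 in poly(I:C) 6, against 7.17 in the next. Slc25a48 was at 4.36 in poly(I:C) 1, against 4.57 in the next, and the other 5 exposed arrays lay above every control.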

How the results depend on the processing

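The 9 members with an unadjusted p under 0.05 kept their sign in all 214 fits that tested them. They were picked by that p in these same arrays, and several of the fits leave the difference unchanged, so this is not separate support. Of these fits 1 gave a limma adjusted p under the threshold, Slc25a42 without control 3 (0.0492). In that fit 84 of 21218 rows passed, against 13 with all arrays. The count past the adjusted threshold was 0 in every alternative except that one, and ran from 0 to 1 with single arrays left out. The count of members higher at an unadjusted p under 0.05 was 7 with all arrays (7.83% of all rows). It was 3 (4.08%) with the cortical and choroid plexus means as covariates and 4 (4.96%) with the cortical mean alone. It was 1 (4.34%) without control 4 and control 6 and 4 (6.75%) without control 1 and control 4. With single arrays left out it ran from 4 without control 4 (6.08%) to 11 without control 5 (8.27%). The lower count was 2 with all arrays (6.57% of all rows). It was 1 with both covariates (4.48%), 1 with the cortical mean alone (5.33%), 1 without control 4 and control 6 (4%) and 3 without control 1 and control 4 (7.59%). It was 0 where rows under the median level were left out (6.63%), since both genes lie there. With single arrays left out it ran from 1 to 2, where 5.32% to 7.51% of all rows were lower. It was 1 when control 2, control 5 or the exposed arrays 4 or 6 were left out. The median difference, 0.0425, was 0.0749 over the 30 members above the median level, 0.020 with both covariates and 0.0202 with the cortical mean alone, and ran from 0.0348 to 0.0495 with single arrays left out. The cause of these shifts was not tested. The fit with the cortical mean alone, leaving out controls 1 and 4, and leaving out single arrays for all 46 members were chosen after seeing the data.

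With single arrays left out, 12 of the 46 members changed sign, the largest of them Slc25a18 (-0.102), which was 0.0954 without poly(I:C) 6. Other alternatives were listed by gene for 22 members, where no sign change had an unadjusted limma p under 0.0643. Slc25a31 turned to 0.00841 with quantile normalization, 0.0224 with array weights, 0.0191 with both covariates, 0.0405 without controls 4 and 6 and 0.0352 without controls 1 and 4. Slc25a46 turned to 0.00639 with both covariates, 0.0055 with the cortical mean and 0.107 on its second row. Slc25a2 turned to -0.00204 with the cortical mean, and without controls 1 and 4 Slc25a14 turned to 0.0199 and Slc25a37 to 0.00993. With single arrays left out, ranges were -0.028 to 0.0123 for Slc25a1, -0.0182 to 0.0485 for Slc25a29, -0.0142 to 0.0418 for Slc25a43, -0.0176 to 0.0212 for Slc25a47, -0.0328 to 0.0216 for Slc25a11, -0.0438 to 0.00807 for Slc25a14, -0.0516 to 0.0257 for Slc25a27, -0.034 to 0.0263 for Slc25a31, -0.0704 to 0.00713 for Slc25a37, -0.0204 to 0.0115 for Slc25a46 and -0.0472 to 0.00839 for Slc25a54. With the replicate number as a block, 6 members were higher (7.17% of all rows) and 2 lower (6.03%) at an unadjusted p under 0.05. After adjustment 0 of all 21218 rows passed in that fit, so 0 members did. Same-numbered arrays correlated between -0.201 and 0.269 in their deviations from group means, and 1 array matched its own number best, so the numbers were not taken as pairs.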
